A study of Mus musculus with 60 samples.

Results

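The cortical RNA levels of 10 activity-regulated genes were examined in mice of 30 inbred strains: the transcription factors Fos, Fosb, Fosl2, Junb, Egr1, Egr2, Egr3, Npas4 and Nr4a1, and the synaptic effector Arc. They were chosen by name, as the array's probe sets annotated with 1 of these symbols and no other, and made up 10 of the 18193 genes with such a probe set. Egr2, Egr3 and Fosl2 had 2 probe sets each, of which the brighter was used, and the others had 1. All 10 were among the 11886 genes that passed the filter on low values, a log2 intensity of at least 4 in at least 6 arrays regardless of group. Per the labels, male mice of each strain drank plain water (0 mg/kg) or received fluoxetine, a serotonin reuptake inhibitor used as an antidepressant, at an oral dose of 18 mg/kg per day for 21 days. They were 10 to 11 weeks old, had been tested for behaviour before they were killed, and were killed over several hours of a morning. Each Affymetrix array held a pool of RNA from 3 mice, and every strain had 1 water and 1 fluoxetine array, which gave 30 arrays per group. The strains were unmodified inbred lines: C57BL/6J, C57BR/cdJ, C57BLKS/J, C58/J, DBA/2J, A/J, BALB/cJ, SWR/J, SJL/J, FVB/NJ, CBA/J, C3H/HeJ, 129S1/SvImJ, LP/J and AKR/J, together with NZB/BlNJ, NOD/LtJ, NZW/LacJ, NOR/LtJ, RIIIS/J, PL/J, P/J, SM/J, MRL/MpJ, LG/J, MA/MyJ, I/LnJ, CE/J, BUB/BnJ and BTBRT T(+) tf/J. With 1 array per strain and treatment, no response of a single strain had a replicate, and p-values measure the spread between these pooled samples.

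Immediate early genes are transcribed within minutes of a neuron's firing, because the proteins that switch them on (CREB, serum response factor with its ETS partners, and MEF2) are already present and need only be phosphorylated or recruited. Most of their products are transcription factors that in turn change the transcription of later genes, and Arc acts directly at the synapse. Their RNAs are short-lived, so the level found in brain tissue reflects the animal's recent experience, and repeated stimulation can blunt some of them while stable products such as the truncated ΔFosB protein accumulate.

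The sequences upstream of the transcription start carry binding sites through which such genes respond to signals, and they are shown as background. Their part in the correlations among the 10 genes, described further on, was not tested. RefSeq windows of the GRCm38.p6 mouse build were at hand for 7 of the 10 genes, namely Fos, Fosb, Fosl2, Junb, Egr2, Npas4 and Nr4a1. In the 250 bases before each start, 3 kinds of motif were searched on both strands: the core of the cAMP response element (TGACG, a CREB motif, which the full element TGACGTCA contains), the CArG box bound by serum response factor, and the EGR site (GCGGGGGCG or GCGTGGGCG). Capitals mark these motifs in the sequences, which read 5′ to 3′ on the gene's strand. The windows of Fos (chr12:85473640-85473889, plus strand), Junb (chr8:84978749-84978998, minus strand) and Fosl2 (chr5:32136222-32136471, plus strand) are given whole.
Fos: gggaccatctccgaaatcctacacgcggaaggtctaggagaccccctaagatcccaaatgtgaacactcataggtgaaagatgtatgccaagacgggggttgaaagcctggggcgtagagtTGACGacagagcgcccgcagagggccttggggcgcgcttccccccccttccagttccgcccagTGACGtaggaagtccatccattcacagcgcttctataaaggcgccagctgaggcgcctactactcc
Junb: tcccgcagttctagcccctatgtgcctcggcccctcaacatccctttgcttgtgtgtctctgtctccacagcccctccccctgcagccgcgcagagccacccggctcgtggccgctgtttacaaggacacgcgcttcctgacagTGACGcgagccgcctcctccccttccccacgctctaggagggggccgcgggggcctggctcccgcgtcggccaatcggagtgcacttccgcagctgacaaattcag
Fosl2: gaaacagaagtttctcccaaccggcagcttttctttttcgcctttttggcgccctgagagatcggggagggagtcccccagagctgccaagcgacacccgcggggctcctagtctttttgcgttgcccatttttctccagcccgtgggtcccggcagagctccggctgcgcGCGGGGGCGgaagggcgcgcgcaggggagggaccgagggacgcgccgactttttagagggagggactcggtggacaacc

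Stretches of 30 bases with motifs are shown for the other 4 genes: Egr2 (chr10:67537792-67537821, plus strand), Fosb (chr7:19310081-19310110, minus strand), Nr4a1 (chr15:101266772-101266801, plus strand) and Npas4 (chr19:4990126-4990155, minus strand).
Egr2: tcagtCCATATATGGgcagcgaCGTCAcgg
Fosb: gcgggTGACGcaagcGCGGGGGCGggtccc
Nr4a1: gtgtgCGTCAgtggCGCCCCCGCccctctc
Npas4: ttcgaCGTCAcgggaTGACGtcggaagtct
This core was found in the windows of 6 of the 7 genes, all but Fosl2, whereas 17.9% of 27018 mouse promoter windows of the same length, 1 per gene, held one. Its first base lay 129 and 66 bases before the start of Fos, 106 before that of Junb, 60 before that of Fosb, 233, 213, 69 and 40 before that of Nr4a1, 179 and 169 before that of Npas4, and 111 and 55 before 1 of the starts of Egr2, which had 5 overlapping or neighbouring windows. Of these 7 genes, Egr2 had a CArG box (1.4% of all windows held one), and Fosl2, Fosb and Nr4a1 had an EGR site (3.05% of all windows). These shares read 1 window per gene, whereas Egr2 was counted if any of its 5 windows matched. Its first window (chr10:67535249-67535498) held none of these motifs. Read from that window alone, Egr2 would count for neither the core nor the CArG box. The full element was in the windows of 0 of the 7 genes and in 1.62% of all windows. A match is a description of letters and was not tested as a binding site.

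The AP-1 factors of the Fos and Jun families bind DNA as dimers, in which a Fos-type protein pairs with a Jun-type protein. Fos, the factor most used as a marker of recent neuronal activity, ran from 8.66 in C57BLKS/J to 11.42 in NZW/LacJ on the log2 intensity scale over water arrays, with a median of 9.55. Over fluoxetine arrays it ran from 8.43 in A/J to 11.32 in C58/J, with a median of 9.73. The ranges overlapped almost wholly, and the strain with the highest level differed between the groups. Fluoxetine minus water was 0.03 (SE 0.15, n = 30 strains, limma adjusted p = 0.957), with Fos higher in 14 strains and lower in 16. The mean was below 0 when any 1 of C57BL/6J, C57BR/cdJ, C58/J, MRL/MpJ or P/J was left out, at the lowest -0.04 without C58/J. In bulk tissue, fewer cells that express a gene and less RNA per cell cannot be told apart.

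Fosb, whose splice form gives the stable ΔFosB protein, was close to its lowest values in most arrays: 22 of the 60 arrays (14 water, 8 fluoxetine) shared the single log2 value 4.75, which was the median of both groups. Over water arrays it ran from 4.22 in A/J to 6.03 in NZW/LacJ, where the next highest, PL/J, had 4.95. The fluoxetine arrays ran from 4.10 in RIIIS/J to 7.47 in DBA/2J, with P/J next at 6.89. A handful of fluoxetine arrays thus lay above every water array, while the rest of both groups overlapped. The mean difference was 0.27 (SE 0.14, adjusted p = 0.375), with 18 strains higher, 10 lower and the remainder equal. Fosb was more than 1 log2 unit higher on the fluoxetine array in 4 strains (C58/J, DBA/2J, I/LnJ and P/J), all of which are among the 5 strains whose whole profiles differed most between the 2 arrays, and without those 5 strains the mean difference was -0.03. The water value of C58/J, DBA/2J and P/J was the shared 4.75, which is not known to lie above background, so no fold is given for them. The same 4 strains had the 4 highest differences of a striatal marker list (P/J 1.04, DBA/2J 0.79, C58/J 0.50, I/LnJ 0.38; 4 genes measured, array means 6.11 to 7.47 on water and 6.25 to 7.56 on fluoxetine arrays, with Drd2 within 0.1 of the floor), and its part in the Fosb values was not tested.

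Fosl2 (Fra-2), a Fos-type protein, ran from 7.88 in CBA/J to 9.58 in SJL/J over water arrays, with a median of 8.98. Its fluoxetine arrays ran from 7.38 to 9.68, with a median of 8.71, and the same strains, CBA/J and SJL/J, stood at both ends. The difference was -0.15 (SE 0.07, 95% interval -0.29 to -0.0037, unadjusted p = 0.0448, adjusted p = 0.311), lower in 19 strains and higher in 11. The other Fosl2 probe set had group means of 2.88 and 2.84, near the floor of the array values at 2.07, and gave no usable second reading. Junb, a Jun-type partner of the Fos proteins, ran from 7.52 in C57BLKS/J to 8.73 in NZW/LacJ over water arrays (median 8.09) and from 7.16 in C57BLKS/J to 8.80 in I/LnJ over fluoxetine arrays (median 8.08). C57BLKS/J was lowest in both groups, and the groups overlapped. The Junb difference was -0.04 (SE 0.07, adjusted p = 0.854), lower in 18 strains and higher in 12.

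The EGR proteins are zinc finger transcription factors induced by synaptic activity and growth factors. Egr1 (Zif268), which is also expressed at rest in cortical neurons, ran from 12.51 in C58/J to 13.44 in BALB/cJ over water arrays (median 13.01) and from 12.55 in A/J to 13.58 in BUB/BnJ over fluoxetine arrays (median 12.99). Its difference was 0.0041 (SE 0.05, 95% interval -0.10 to 0.11, adjusted p = 0.988), with 15 strains higher and 15 lower. The sign of so small a mean turned when any 1 of 10 strains was left out (AKR/J, BUB/BnJ, C57BL/6J, C57BLKS/J, C58/J, MRL/MpJ, NZB/BlNJ, P/J, SJL/J or SWR/J). Both groups therefore covered the same band, with a width of about 1 log2 unit.

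Egr2 (Krox-20), which also serves Schwann cell myelination outside the brain, ran over a far wider band, from 6.12 in CBA/J to 9.08 in BALB/cJ over water arrays (median 7.29). Over fluoxetine arrays it ran from 6.20 in BTBRT T(+) tf/J to 9.26 in P/J, with the same median of 7.29, a value that 13 of the 60 arrays shared after rounding to 2 decimals. The difference was 0.03 (SE 0.16, adjusted p = 0.965), again with 15 strains higher and 15 lower, and its sign turned without any 1 of BUB/BnJ, C58/J, MRL/MpJ, P/J or PL/J. The other Egr2 probe set behaved alike: it correlated with the one used at r = 0.917 over water arrays and 0.942 over within-strain differences, and gave a difference of 0.05. Egr3, a factor of the same family that binds the same DNA motif, ran from 12.43 in NZB/BlNJ to 13.60 in RIIIS/J over water arrays (median 12.98) and from 12.48 in CBA/J to 13.59 in PL/J over fluoxetine arrays (median 13.09). Its difference was 0.04 (SE 0.05, adjusted p = 0.743), higher in 13 strains and lower in 17, so the groups overlapped here too. The second Egr3 probe set lay at the floor.

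Npas4, a neuron-specific factor induced by calcium entry that regulates inhibitory synapses, ran from 6.997 in FVB/NJ to 9.12 in C3H/HeJ over water arrays (median 7.89) and from 6.05 in CBA/J to 8.68 in C57BL/6J over fluoxetine arrays (median 7.73). The fluoxetine group lay lower at both ends while the middles overlapped. The difference was -0.28 (SE 0.13, 95% interval -0.54 to -0.02, unadjusted p = 0.0357, adjusted p = 0.286), which corresponds to a change of -17.5% in intensity, with 18 strains lower and 12 higher. Nr4a1 (Nur77), an orphan nuclear receptor, ran from 9.98 in FVB/NJ to 11.30 in NZW/LacJ over water arrays (median 10.63) and from 9.83 in BTBRT T(+) tf/J to 11.37 in BUB/BnJ over fluoxetine arrays (median 10.55). Its difference was -0.11 (SE 0.07, adjusted p = 0.481), lower in 16 strains and higher in 14. Arc, whose protein promotes removal of AMPA receptors from synapses, ran from 8.36 in C58/J to 10.93 in RIIIS/J over water arrays (median 9.77) and from 8.55 in BTBRT T(+) tf/J to 11.35 in BUB/BnJ over fluoxetine arrays (median 9.77). It was higher on the fluoxetine array in 21 strains and lower in 9, with a difference of 0.10 (SE 0.12, adjusted p = 0.755).

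**Figure D1:**
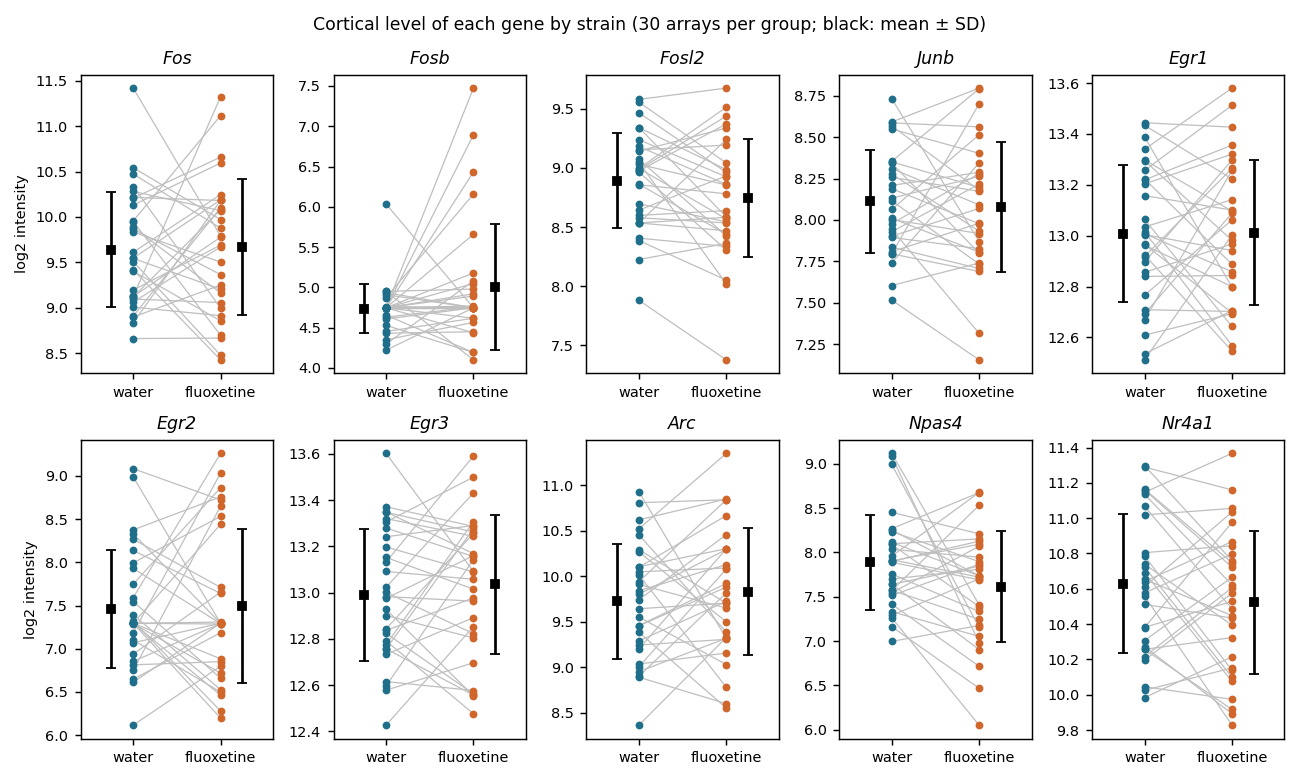
Log2 intensity of each gene on the water and fluoxetine array of each of 30 strains (1 point per array, grey lines joining both arrays of a strain, black squares with bars the group mean ± SD; each panel has its own axis). The groups overlap in all 10 panels, lines run up and down in every panel, and the Fosb panel shows a few fluoxetine arrays, up to 7.47 in DBA/2J, above all water arrays.

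None of the 10 genes thus passed the limma test of fluoxetine against water (0 of 10), beside 7 of 11886 genes tested (0.0589%). At an unadjusted p under 0.05, Fosl2 and Npas4 counted, 2 of 10, beside 15.3% of all genes tested. The median of the 10 mean differences was 0.02, that of all tested genes -0.0029. The absolute mean difference had a median of 0.07 for the 10 genes and 0.03 for all tested genes, while their standard errors reached 0.16, so the intervals of Fos (-0.28 to 0.35), Egr2 (-0.30 to 0.36) and Arc (-0.15 to 0.36) reach well to both sides of 0.

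While the mean differences were small, the single differences behind them varied widely from strain to strain. Their SD over the 30 strains was 0.932 for Egr2, 0.887 for Fos, 0.818 for Fosb, 0.726 for Npas4 and 0.709 for Arc. It was smaller for Fosl2 (0.405), Nr4a1 (0.385), Junb (0.374), Egr1 (0.300) and Egr3 (0.288). The median over the 10 genes was 0.557, against 0.158 over all tested genes. Because array noise depends on brightness, each gene was also set beside the 500 tested genes nearest to it in mean level: Fos and Nr4a1 spread more than 100% of theirs, Egr2 more than 99.8%, Npas4 more than 99.6%, Arc more than 99.4%, and Junb, the least, more than 94.6%. This is a description, and no test was attached to it. Averaging the probe sets of a gene, with 1 near the floor, lowered the SD of Fosl2 to 0.220 and of Egr3 to 0.145.

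**Figure D2:**
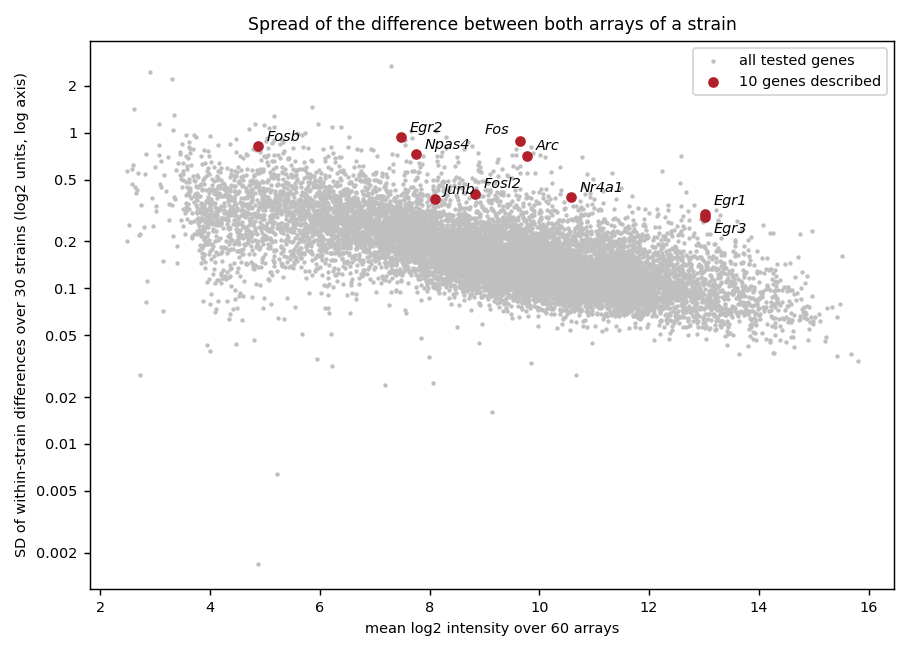
SD over 30 strains of fluoxetine minus water (log axis) against the mean log2 intensity over 60 arrays, for 11886 tested genes (grey) and the 10 genes described (red). The 10 genes lie along the upper edge of the grey cloud at every brightness, from Fosb at 0.818 to Egr3 at 0.288.

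Differences between strains were tested with an F-test of the strain terms in the same limma fit, in which the 2 arrays of a strain act as its replicates after the treatment mean is removed. Anything that both arrays of a strain shared, such as a batch or the hour of killing, cannot be told apart from the strain in this test. The levels of 7 of the 10 genes differed between strains (adjusted p under 0.05), beside 88.3% of all tested genes, so most genes on this array passed and the 10 were no exception upward. The adjusted p was 0.000105 for Fosl2, 0.000566 for Nr4a1, 0.00094 for Egr3, 0.00389 for Junb, 0.00437 for Arc, 0.00721 for Egr1 and 0.0267 for Egr2. Npas4 (0.0769), Fos (0.113) and Fosb (0.325) did not pass. The intraclass correlation, the share of a gene's variance that both arrays of a strain have in common, ran from 0.0408 for Fosb, 0.182 for Fos and 0.222 for Npas4 to 0.537 for Nr4a1 and 0.603 for Fosl2. Its median was 0.421 over the 10 genes and 0.593 over all tested genes. Egr2 no longer passed without BALB/cJ (adjusted p = 0.0758) or with no filter on low values (0.0635). Fos passed without C58/J (0.0441), and Npas4 passed when any 1 of C3H/HeJ, DBA/2J, I/LnJ or NZW/LacJ was left out (0.0217 without DBA/2J), so for Egr2, Fos and Npas4 the call rested on single strains.

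Averaged over both arrays, C57BLKS/J had the lowest strain mean for Fos (8.66), Fosb, Junb (7.34), Egr1 (12.62) and Arc (8.74). CBA/J had the lowest for Fosl2 (7.63), Egr2 (6.46), Npas4 (6.66) and Nr4a1 (10.01). BUB/BnJ was highest for Egr1 (13.46), Arc (10.93) and Nr4a1 (11.26), SJL/J for Fosl2 (9.63) and Egr3 (13.40), and NZW/LacJ for Fos (10.60). A strain low for 1 of these genes was thus often low for several. Ordered by strain mean, neighbouring strains rarely differed by more than the SD between both arrays of a strain: this happened at 2 steps for Fosl2, at 1 for Junb, and at 0 for each of the other genes. From one rank to the next, these arrays thus rarely resolved an order.

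Over the 30 water arrays the 10 genes correlated with each other. All 45 pairs had a positive Pearson r, with a median of 0.512 against 0.04 over all pairs of tested genes, and 30 of the 45 passed a two-sided permutation test with 100000 resamples (Benjamini-Hochberg over 90 pairs, the 45 here and the 45 over differences; 33 at an unadjusted p under 0.05, 31 by Spearman's rho). The lowest r among the 30 was 0.393, and 9.59% of all pairs of tested genes had an r at least that high. The 2 values behind a point come from 1 array, so the correlation describes arrays and not cells. Some of the 30 strains share ancestry, which the permutation test, here and over differences, does not take into account. The highest were Junb with Nr4a1 (r = 0.851, rho = 0.887), Arc with Nr4a1 (r = 0.846, rho = 0.866), Fos with Nr4a1 (r = 0.829, rho = 0.8002), Egr1 with Egr2 (r = 0.818, rho = 0.854) and Fos with Junb (r = 0.810, rho = 0.782). Each of these had the smallest permutation p that the resamples can give, 1e-05. They held without the 2 strains farthest from the median of the first gene, at r = 0.840, 0.855, 0.806, 0.853 and 0.751 in the same order.

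Fos, Egr2 and Nr4a1 each passed with 8 of their 9 partners over water arrays, Junb and Egr1 with 7, and Arc with 6. Fosb, Fosl2 and Npas4 passed with 5. Egr3 passed with 1, Egr2 (r = 0.583), and its r with Junb was 0.0868, the lowest of all pairs. Egr3 was thus the member with the fewest partners in untreated cortex. Of the 30 pairs, 25 passed whichever single strain was left out. Fosb with Junb and Fosb with Nr4a1 did not pass without NZW/LacJ, the strain with the highest Fosb (r = 0.356 and 0.396, adjusted p = 0.0973 and 0.0598). Arc with Npas4, Fosb with Egr1 and Egr2 with Npas4 were lost without any 1 of 12, 8 and 4 strains, from r = 0.406, 0.393 and 0.426 with all strains. Over the 30 fluoxetine arrays, 44 of the 45 pairs were again positive, with a median r of 0.460, and 26 of the 30 pairs passed there too. Fosb with Nr4a1 had r = 0.480 over water and -0.147 over fluoxetine arrays, and Fosb with Egr1 and with Fosl2 had 0.125 and 0.135 over fluoxetine arrays. Whether these correlations differed between the groups was not tested.

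The same genes also moved together within strains. Over the 30 differences (fluoxetine minus water), from which a level fixed by the strain cancels, 44 of the 45 pairs had a positive r, with a median of 0.460 against 0.0150 over all pairs of tested genes. Of the 45 pairs, 26 passed (28 unadjusted, 27 by Spearman's rho), all positive, with r of 0.395 or more. The share of all pairs of tested genes with an r that high was 7.16%. Of the pairs, 23 passed over both water arrays and differences, 7 over water arrays alone, 3 over differences alone and 12 over neither. The water array enters both measures, so they are not independent of each other.

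Fos with Egr2 was the strongest pair of differences (r = 0.862, rho = 0.859, permutation p = 1e-05), and both genes moved in the same direction in 27 of 30 strains. Egr1 with Egr2 followed (r = 0.856, same direction in 28 strains), then Fos with Egr1 (0.786, 27 strains), Fos with Arc (0.782, 21 strains), Fos with Junb (0.781, 22 strains) and Arc with Nr4a1 (0.781, 23 strains). Egr1, whose differences stayed within about 0.59 of 0, thus followed the same strains as Fos and Egr2 on a smaller scale. Fosl2 with Egr3 (r = 0.701) paired 2 genes that had less in common with the rest: over differences, Fosl2 passed with 3 partners and Egr3 with 4, while Fos passed with 8. Fosl2 with Egr3 over water arrays had r = 0.370 (adjusted p = 0.0658).

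Fosb and Npas4 each passed with 3 of 9 partners over differences. The only negative pair was Fosb with Nr4a1 (r = -0.148, adjusted p = 0.486), where DBA/2J and P/J combined the largest positive differences of Fosb (2.73 and 2.15) with lower Nr4a1 (-0.62 and -0.65), and without those 2 strains r was 0.189. Fosb with Npas4 had r = 0.06, and 0.490 without the same strains, since DBA/2J also had the lowest Npas4 difference (-2.11). Fosb with Junb had r = 0.558, and 0.722 without them. By contrast, Fosb with Egr3 was lost without DBA/2J (r = 0.352, adjusted p = 0.0805) or RIIIS/J, and Fos with Fosb without C58/J and NZW/LacJ (r = 0.321). Of the 26 pairs, 20 passed whichever strain was left out. The other 5 beside Fosb with Egr3 were Fos with Egr3 (lost without C57BR/cdJ, MRL/MpJ or RIIIS/J), Fosl2 with Egr1 and with Egr2 (without MRL/MpJ), Junb with Npas4 (without NZW/LacJ) and Arc with Npas4, which was lost without any 1 of 21 strains.

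**Figure D3:**
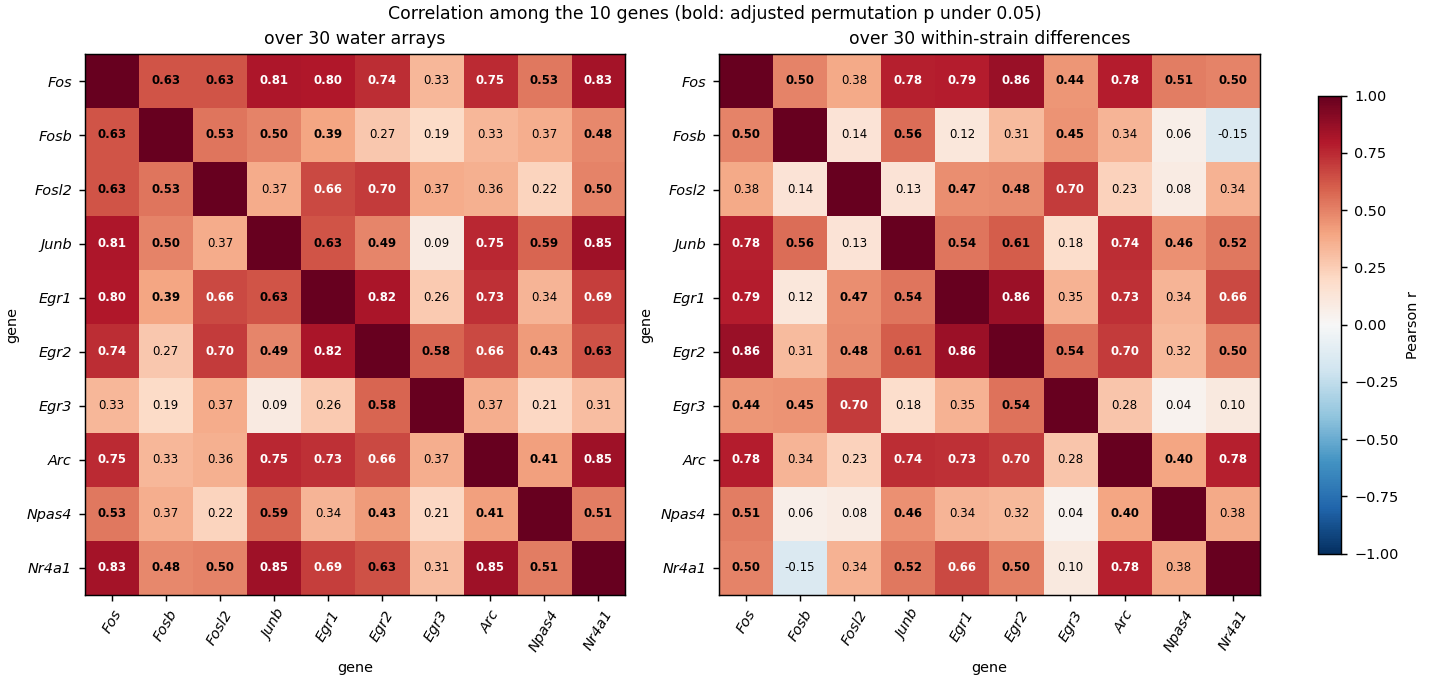
Pearson r between each pair of the 10 genes over 30 water arrays (left) and over 30 within-strain differences, fluoxetine minus water (right); bold marks pairs past the adjusted permutation test. The block of Fos, Junb, Egr1, Egr2, Arc and Nr4a1 is dark in both panels, and the palest rows are those of Egr3 on the left and of Fosb, Fosl2, Egr3 and Npas4 on the right.

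**Figure D4:**
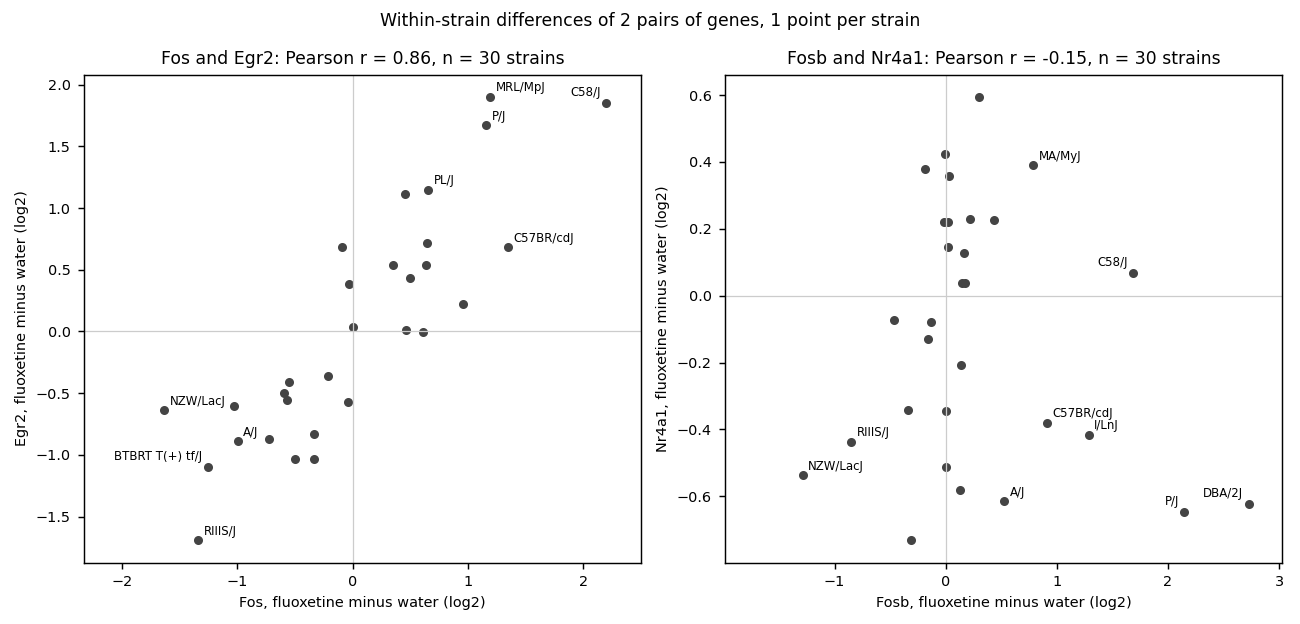
Fluoxetine minus water (log2) of Fos against Egr2 (left) and of Fosb against Nr4a1 (right), 1 point per strain, with the farthest strains named. The left points follow a rising line from RIIIS/J and NZW/LacJ to C58/J (r = 0.862), and the right points do not (r = -0.148), with DBA/2J and P/J at high Fosb and low Nr4a1.

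The strains split evenly in direction: the mean difference over the 10 genes was above 0 in 15 strains and below 0 in 15, with an SD of 0.42 over strains. The largest shift down was that of RIIIS/J (-0.88 on average), where all 10 genes were lower on the fluoxetine array, led by Egr2 (-1.69), Arc (-1.61) and Fos (-1.34). The Egr2 value of that fluoxetine array was the 7.29 that 13 arrays shared, which is not known to lie above background. RIIIS/J also had the largest change in the 3′ minus 5′ signal of Actb, a sign of RNA quality (0.34, next in size SM/J with -0.21). Its Gapdh signal differed by 0.02, choroid plexus genes, mostly low on these arrays, by 0.86 and meningeal genes by -0.59. The part of these measures in the shift was not tested. NZW/LacJ (-0.87) and BTBRT T(+) tf/J (-0.69) also had all 10 genes lower. In NZW/LacJ, Npas4 (-1.84), Fos (-1.63) and Fosb (-1.29) led, and Fos was 3.10 times as high on the water array as on the fluoxetine array. In BTBRT T(+) tf/J, Fos (-1.25) and Egr2 (-1.10) led, and this strain had the lowest fluoxetine array for Egr2, Arc and Nr4a1. Its Egr2 value on the water array was the same shared 7.29. A/J and C3H/HeJ followed with means of -0.43 and -0.42.

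The largest shift up was that of C58/J (0.85 on average, 9 of 10 genes higher), where Fos was 2.20 higher, a 4.59-fold difference, Egr2 1.85 and Fosb 1.69 higher, and Egr3 differed by -0.03. MRL/MpJ (0.73) and PL/J (0.43) had all 10 genes higher, MRL/MpJ with the largest values of all strains for Egr2 (1.90), Arc (1.10), Fosl2 (0.71), Nr4a1 (0.60) and Egr1 (0.59). MRL/MpJ also had the lowest difference of the striatal list (-0.93). It had the highest of a red blood cell list (0.44, 2 genes measured, 0 past the filter on low values). The part of these lists in its shift was not tested. P/J (0.52) had higher Fosb (2.15), Egr2 (1.67) and Fos (1.16) beside lower Nr4a1. The Fosb differences of C58/J and P/J started from the shared water value of 4.75. The Egr2 water values of C58/J and MRL/MpJ lay below the shared 7.29 and are not known to lie above background. DBA/2J had a mean near 0 (-0.11) but the widest split among the genes, with Fosb at 2.73 (from the shared water value) and Npas4 4.30-fold lower on the fluoxetine array. These strains thus differed in which genes led as well as in direction.

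The water array enters each difference. NZW/LacJ and RIIIS/J ranked 1 and 2 of 30 by the mean water level of the 10 genes, and 17 and 23 by the fluoxetine level. C58/J and MRL/MpJ ranked 25 and 26 by water level, and 3 and 7 by fluoxetine level. BTBRT T(+) tf/J was unlike the first 2: it ranked 18 by water and 30 by fluoxetine level. None of these shifts has a replicate, and whether a single pool of 3 mice or the strain carries it cannot be told apart.

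**Figure D5:**
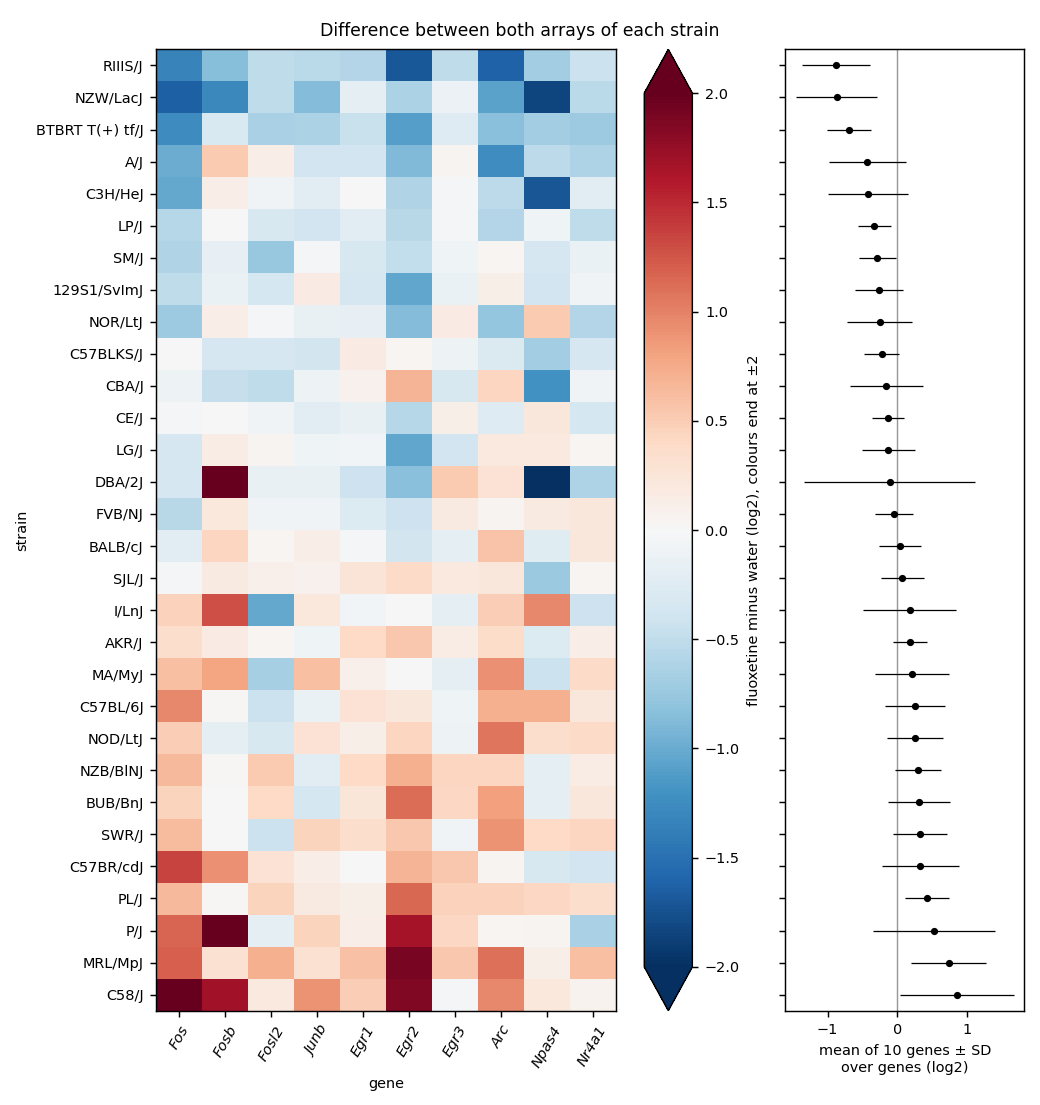
Fluoxetine minus water (log2) of the 10 genes in each strain, sorted by the mean over genes (left, colours ending at ±2), and that mean with its SD over genes (right). RIIIS/J, NZW/LacJ and BTBRT T(+) tf/J at the top are blue for all genes, MRL/MpJ and PL/J near the bottom red for all, and DBA/2J in the middle holds both a dark red (Fosb, 2.73) and a dark blue (Npas4, -2.11).

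The dissection was checked on marker lists. A list of 7 measured cortical excitatory neuron genes had array means of 11.30 to 11.83 in the water and 11.36 to 11.82 in the fluoxetine group, and differed between both arrays of a strain by -0.16 to 0.16. Other cell types and neighbouring regions varied more: astrocyte genes by -0.10 to 0.82, oligodendrocyte genes by -1.02 to 0.48, striatal genes by -0.93 to 1.04, meningeal genes by -1.21 to 1.05 and choroid plexus genes by -2.62 to 0.96. Of the 4 choroid plexus genes measured, 1 passed the filter on low values, and Otx2 lay within 0.1 of the floor. Their array means were 3.32 to 6.34 on water and 3.11 to 4.85 on fluoxetine arrays. Of 14 such measures, including the 3′ to 5′ signals of Actb and Gapdh as signs of RNA quality, the astrocyte list alone passed a permutation test against the Fos differences (r = 0.528, adjusted p = 0.0318). Its Spearman rho was 0.257 (adjusted p = 0.582), and r was 0.306 without C58/J and NZW/LacJ, so the relation rested on those strains. Astrocyte genes (5 of 5 measured, none near the floor, array means 10.95 to 11.84 on water and 11.37 to 12.42 on fluoxetine arrays) were 0.82 higher in C58/J and 0.79 higher in P/J, 2 of the strains with large positive Fos differences, and 0.06 higher in MRL/MpJ. Oligodendrocyte genes (5 measured, array means 9.84 to 10.97 and 9.03 to 11.06) differed by -1.002 in P/J, -0.95 in MRL/MpJ and -0.74 in C58/J, and by -0.34 to -0.02 in the 3 strains with all 10 genes lower. PL/J, with all 10 genes higher, had 0.07. SM/J, LP/J and C3H/HeJ, with 9 genes lower, had -1.02, the lowest of all strains, -0.37 and -0.03. Against the Fos differences this list had r = -0.344 (permutation test, adjusted p = 0.289). The part of these tissue differences in the shifts was not tested. Without the 5 strains whose whole profiles differed most (P/J, DBA/2J, C58/J, I/LnJ and C57BR/cdJ), 33 pairs passed over water arrays and 31 over differences.

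Lists of related genes were examined in the same fit, and 0 of their genes passed the test of fluoxetine against water. Among 15 tested further immediate early transcription factors, 7 had positive and 8 negative differences, with a median of -0.01, and those with the smallest p were Ier5 (0.13, adjusted p = 0.150), Klf10 (0.24, 0.154) and Jun (0.18, 0.175). Among 18 immediate early effectors, 14 differences were positive and 4 negative (median 0.04), with Per1, a clock gene that is also activity-induced, at -0.14 (adjusted p = 0.118), Rgs2, a regulator of G protein signalling, at 0.27 (0.129) and Dusp4, a MAP kinase phosphatase, at 0.17 (0.160). All 9 late activity-induced genes had positive differences, with a median of 0.13 against -0.0029 over all tested genes. They were led by Inhba, a subunit of activin, at 0.53 (SE 0.13, adjusted p = 0.0764, higher in 24 strains), Nptx2, a synaptic pentraxin, at 0.55 (SE 0.15, 0.0874, higher in 24) and Vgf, a secreted neuropeptide precursor, at 0.13 (0.142). The late genes are thus a group whose mean differences lay on 1 side while none passed. Counted by strains, Bdnf was higher in 15 and lower in 15, and Pcsk1 (mean 0.0077) was higher in 12 and lower in 17.

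Among 12 upstream factors and kinases, 7 differences were positive and 5 negative (median 0.0078; 6 and 6 with quantile normalization, where Mef2c turned). Camk4, a calcium-dependent kinase that phosphorylates CREB, was at -0.15 (SE 0.04, adjusted p = 0.0764, lower in 26 strains), Mef2a at 0.06 (0.110) and Elk1, an ETS partner of serum response factor, at 0.13 (0.167). Among 7 binding partners and repressors, 4 were positive and 3 negative (median 0.0085), with Rcan1, an inhibitor of calcineurin, at 0.06 (0.130), Jdp2, a repressor of AP-1 targets, at -0.10 (0.229), and Arnt2, the dimer partner of Npas4, at 0.03 (0.404).

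The related genes followed the 10 genes to different degrees. The r of each with the mean of the standardised 10 genes had a median of 0.271 over water arrays and 0.303 over differences for the immediate early transcription factors, and of 0.333 and 0.401 for the effectors. The late genes had a median of -0.01 over water arrays and 0.395 over differences. For the upstream factors it was -0.09 and -0.19, for the partners and repressors 0.186 and -0.07, and for all 11876 other tested genes -0.03 and -0.03.

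The 6 genes outside the set most like its mean over water arrays were Nr4a3 (r = 0.756), an orphan receptor of the Nr4a family, Tiparp (0.720), an ADP-ribosyltransferase, Slc35a4 (0.697), Dusp1 (0.693), a MAP kinase phosphatase, P4ha1 (0.673), a collagen prolyl hydroxylase subunit, and Usp27x (0.666), a deubiquitinase. Over differences they were Dusp6 (0.809), another MAP kinase phosphatase, Dnajb5 (0.795), a co-chaperone, Ier5 (0.745), Pfkfb3 (0.686), a regulator of glycolysis, Fastkd5 (0.677) and Kdm7a (0.676), a histone demethylase. All were picked for their likeness among 11876 genes over 30 strains, so the values carry no test. Slc35a4 alone of these 12 had no counterpart in the other measure, with r = -0.02 over differences, while the other 11 had 0.434 to 0.665 there.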

How the data were processed

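Cortical RNA of 60 pools of 3 mice was hybridised to 1-colour Affymetrix arrays. The values deposited by the authors are linear intensities per probe set, made with GCRMA per the submitters' processing notes, of unstated version. GCRMA removes background using each probe's sequence, scales arrays to each other and merges the probes of a set, which can pull low values to a shared value. Intensities ran from 4.21 to 72333.5 and were taken to log2 with no pseudocount; 26.3% to 28.1% of probe sets per array lay at the floor of 2.07. The number of arrays limits the precision. Of 45101 probe sets, 34945 had 1 gene symbol in the platform annotation, 932 several, 9160 none and 64 were controls; each gene was read from its brightest probe set with that symbol alone. Levels were not compared between genes.

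Groups and strains came from the labels. Fluoxetine minus water was tested with limma 3.58.1 in R 4.3.3 over 11886 genes, with strain as block, two-sided, Benjamini-Hochberg threshold 0.05, checked on simulated data. The pairing comes from the strain label: all 30 fluoxetine arrays correlated best with the water array of their own strain (r of deviations from the group means 0.519 to 0.855). Correlations used Python 3.11.15 and numpy 2.4.6. Named genes were the 10, the genes of 5 related lists past the threshold or else the 3 with the smallest p, and the 6 most like the 10 by each measure. Pairs and single strains singled out in the text, and the counts of strains moving in the same direction, were chosen after their values were seen. The 10 genes and the lists were chosen with earlier results of these data known. Alternatives were other probe set rules, filters, scalings, variance models, no strain block and strains left out. No batch entered a fit, since dates of scanning or hybridisation are not in the labels.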

Additional observations from a re-analysis of the deposited data

How the results depend on the processing

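The count of all genes past the limma test depended on the setting: 7 in the fit reported, 0 with no replicate block for strain, 0 when probe sets were averaged per gene, 1 with no filter on low values and 2 without the 5 strains of largest overall difference. Leaving out 1 strain gave 0 to 21: it was 21 without RIIIS/J, 12 in the absence of BTBRT T(+) tf/J, 4 for NOD/LtJ, CE/J, CBA/J or AKR/J, 3 for NZW/LacJ or NZB/BlNJ, 2 for SWR/J, 1 for MA/MyJ, DBA/2J, C57BR/cdJ or C57BL/6J, and 0 for C58/J or C57BLKS/J. The count among the 10 genes was 0 in each of these fits, with or without the block. Without the 5 strains the differences turned sign, none of them past the test, for Fos (-0.16), Egr2 (-0.10), Fosb (-0.0268) and Egr1 (-0.0012). With 1 strain left out they ran from -0.0438 to 0.0883 for Fos, -0.0366 to 0.0873 for Egr2 and -0.0160 to 0.0246 for Egr1. Fosb with Nr4a1 turned to r = -0.147 over fluoxetine arrays. The cause was not tested. Of the 10 genes, 9 passed the strain test without the 5 strains, 6 with no filter (Egr2 lost) and 6 to 8 with 1 strain left out, when 26 to 33 pairs passed over water arrays and 22 to 28 over differences. The strain shifts and the median spread moved by less than their own spread under 3 alternatives of probe set and scaling. Low values limit Fosb, with 22 arrays at the same value, and the second probe sets of Fosl2 and Egr3. Egr2 is limited by the 13 arrays that shared a rounded value.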
